A study of Homo sapiens with 8 samples.

Results

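The origin recognition and licensing genes are 10 genes that encode the 6 subunits of the origin recognition complex (ORC1, ORC2, ORC3, ORC4, ORC5 and ORC6), the loading factors CDC6 and CDT1, the CDT1 inhibitor geminin (GMNN) and DBF4, the activating subunit of the CDC7 kinase. They were chosen by name from 78932 genes in the tables, with earlier results of these data known. All 10 were found and tested among 12618 genes that passed the filter on low counts. RNA came from HCT116, a human colorectal cancer line, with a degradation tag on NUDT21, which encodes a subunit of the cleavage factor that binds upstream of poly(A) sites. JTE-607, which inhibits the nuclease of the poly(A) cleavage machinery, was present in all 8 libraries. It was combined with the solvent DMSO in 4 libraries and with dTAGV1, a compound that recruits a ubiquitin ligase to the tag so that the protein is destroyed, in the other 4. Doses, times and whether the tagged line is 1 clone are not given in the sources used here, and nothing says that the libraries came from separate cultures, so p-values measure only the spread between these libraries. The comparison asked which RNA levels, read as counts near transcript 3′ ends, differed upon dTAGV1 in the presence of JTE-607.

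In each cell cycle, the origin recognition complex binds DNA and, with CDC6 and CDT1, loads the MCM helicase onto origins while cells are in G1, a step called licensing. Geminin binds CDT1 in S phase and G2 and so blocks a repeat of licensing, and the kinase made of CDC7 and DBF4 phosphorylates loaded MCM so that origins fire. In cycling human cells the RNAs of ORC1, CDC6, CDT1, geminin and DBF4 vary with the cell cycle under E2F and related factors, whereas those of ORC2, ORC3, ORC4 and ORC5 are made more evenly.

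The 10 genes fell into separate groups. ORC6, CDT1, CDC6, GMNN, ORC1 and DBF4 were lower in every dTAGV1 library than in any DMSO library, by 47.3% to 62.6% of the DMSO level. ORC2 was higher by 30.9%, and ORC3, ORC4 and ORC5 did not pass the test. Thus 6 of 10 were called lower, where 28.5% of all tested genes were, and 1 was called higher, where 29.4% of all tested genes were (quasi-likelihood test in edgeR, threshold 0.05 after Benjamini-Hochberg adjustment over all tested genes). In either direction 57.9% of all tested genes were called, so that a call as such was common. Values in CPM, which is counts per 1000000 of the library after TMM scaling, of 7 of the 10 genes did not overlap between the groups, 6 of them lower with dTAGV1. The same held for 50.9% of all tested genes, and for 25.1% in the lower direction. The median log2 fold change was -0.93 over the 10 genes and 0.01 over all tested genes.

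Libraries held 3447842 to 4291256 reads counted to genes on the strand of the gene, of which 1078 to 2498 fell on the 10 genes. NUDT21 fell to 0.259 of its DMSO level (log2 fold change -1.95, SE 0.18; edgeR, Benjamini-Hochberg adjusted p = 1.36e-09), and the tag acts on its protein, which was not measured. The epithelial markers EPCAM, KRT8, KRT18, KRT19, CDH1 and CDX2 were counted in every library, and VIL1 had at most 3 counts. Of the markers of other cell types, COL3A1 and ALB had 0 counts, PTPRC, CD3E and PECAM1 at most 2, and COL1A1 37 to 73.

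The stretches upstream of the transcript starts of 7 of these genes are shown, to set 5 of the 6 genes that fell beside ORC2, which rose, and ORC3, which was not called but holds an E2F match. DBF4, the other gene that fell, is not shown because no match lies wholly before its start. Each is the 250 bases before the start, 5′ to 3′ on the strand of the gene, from RefSeq on GRCh38.p14. These starts differ from the GENCODE 29 gene bounds given further below. The CDT1 and GMNN stretches lie wholly within those bounds, and the CDC6 stretch almost wholly. Capitals mark every match, on either strand, to the E2F consensus (TTTCCCGC, TTTCGCGC, TTTGCCGC or TTTGGCGC), the shorter E2F core (GGCGGGA), the cell cycle homology region or CHR (TTTGAA or TTCGAA) and the NF-Y box (CCAAT). The sequences lie at chr17:40287629-40287878 on the plus strand (CDC6), chr16:88803539-88803788 on the plus strand (CDT1), chr6:24775163-24775412 on the plus strand (GMNN, the second of 2 starts listed), chr16:46689409-46689658 on the plus strand (ORC6), chr1:52404424-52404673 on the minus strand (ORC1), chr2:200963661-200963910 on the minus strand (ORC2) and chr6:87589885-87590134 on the plus strand (ORC3).
CDC6: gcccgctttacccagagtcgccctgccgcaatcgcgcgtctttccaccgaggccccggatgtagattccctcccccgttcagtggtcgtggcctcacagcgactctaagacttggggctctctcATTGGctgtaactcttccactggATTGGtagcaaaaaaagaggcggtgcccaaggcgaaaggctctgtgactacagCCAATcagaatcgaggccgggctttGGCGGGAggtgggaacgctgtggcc
CDT1: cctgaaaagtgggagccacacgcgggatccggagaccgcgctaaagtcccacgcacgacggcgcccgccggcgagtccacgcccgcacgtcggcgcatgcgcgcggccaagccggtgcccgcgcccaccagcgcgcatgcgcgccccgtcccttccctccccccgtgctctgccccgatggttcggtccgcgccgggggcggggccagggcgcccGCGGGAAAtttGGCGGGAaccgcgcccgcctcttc
GMNN: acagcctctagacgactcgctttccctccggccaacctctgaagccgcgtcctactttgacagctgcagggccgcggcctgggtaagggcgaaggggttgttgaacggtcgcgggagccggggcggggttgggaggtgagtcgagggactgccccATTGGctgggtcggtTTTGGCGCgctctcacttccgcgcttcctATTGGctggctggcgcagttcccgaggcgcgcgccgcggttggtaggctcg
ORC6: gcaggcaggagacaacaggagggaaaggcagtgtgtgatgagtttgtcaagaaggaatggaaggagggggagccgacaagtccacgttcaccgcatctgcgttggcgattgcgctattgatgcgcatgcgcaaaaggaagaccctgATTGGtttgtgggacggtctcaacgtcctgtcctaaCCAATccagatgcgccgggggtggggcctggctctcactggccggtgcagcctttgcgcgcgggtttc
ORC1: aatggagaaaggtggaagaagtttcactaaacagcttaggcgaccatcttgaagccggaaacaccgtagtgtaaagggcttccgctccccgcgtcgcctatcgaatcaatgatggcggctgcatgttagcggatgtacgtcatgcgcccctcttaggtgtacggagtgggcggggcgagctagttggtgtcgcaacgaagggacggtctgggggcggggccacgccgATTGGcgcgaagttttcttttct
ORC2: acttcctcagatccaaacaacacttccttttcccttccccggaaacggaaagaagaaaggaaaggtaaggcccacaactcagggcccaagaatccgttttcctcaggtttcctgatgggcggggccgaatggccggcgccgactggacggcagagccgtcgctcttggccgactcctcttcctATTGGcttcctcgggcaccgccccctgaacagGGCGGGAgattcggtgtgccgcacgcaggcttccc
ORC3: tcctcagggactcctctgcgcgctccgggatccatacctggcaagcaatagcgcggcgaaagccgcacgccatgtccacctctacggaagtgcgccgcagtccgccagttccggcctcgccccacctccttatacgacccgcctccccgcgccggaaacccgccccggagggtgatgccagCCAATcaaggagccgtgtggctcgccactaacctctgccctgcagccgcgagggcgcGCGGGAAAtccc

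Matches were counted in windows that run from 250 bases before to 50 after each listed start, and 12 windows were listed for the 10 genes. A gene was counted where any of its windows held a match, whereas shares over all tested genes are per window. An E2F consensus match was present for 4 of 10 genes, namely CDC6, CDT1, GMNN and ORC3, and in 5.01% of the 13422 windows of all tested genes. That is 3 of the 6 genes called lower and 1 of the other 4. The match in CDC6 begins 8 bases after the start, so it is not in the stretch shown. The E2F core was present for 5 of 10 genes, CDC6, CDT1, ORC2, ORC4 and ORC5, and in 23.8% of the windows of all tested genes. This core was added as a search word after the sequences were seen. It was present for 2 of the 6 genes called lower and 3 of the other 4. The NF-Y box was present for 6 of 10 genes, with 3 matches in CDC6, and in 35% of the windows of all tested genes. It was present for 4 of the 6 genes called lower and 2 of the other 4. DBF4 held the only CHR match, which crosses its start, against 11.9% of all tested windows. No match of one motif overlapped a match of another in these windows. A match describes letters and not binding, which was not measured.

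**Figure D1:**
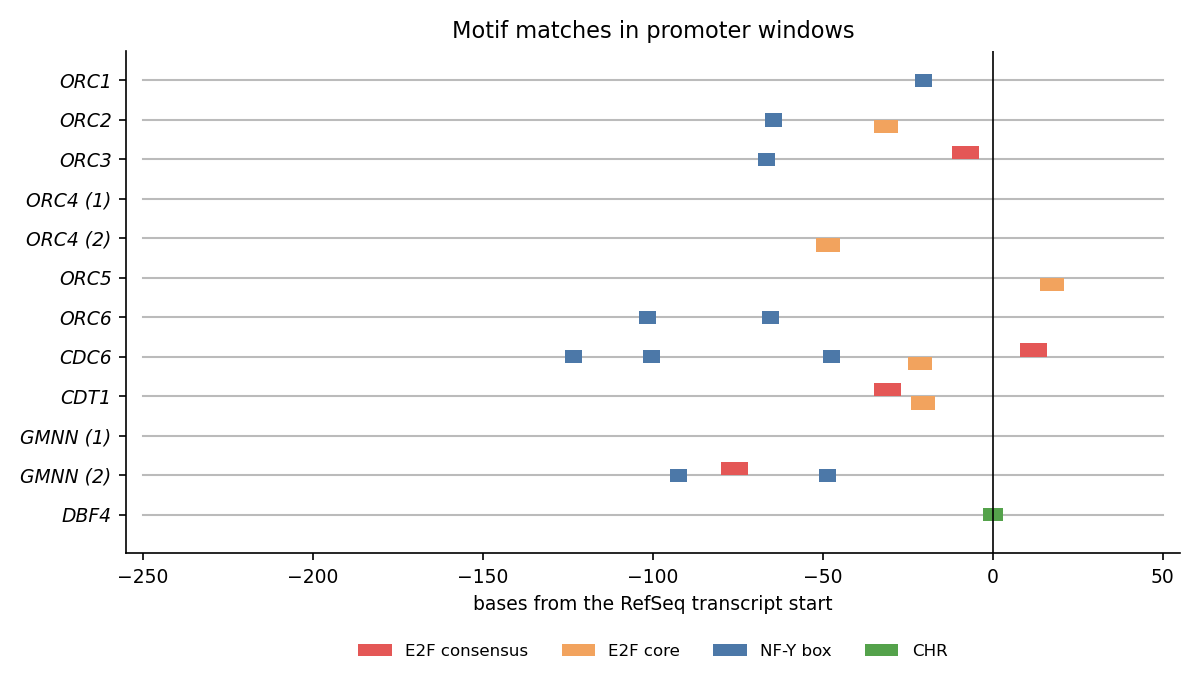
Matches to the E2F consensus, E2F core, NF-Y box and CHR in the promoter windows of the 10 genes, as bases from the RefSeq start; ORC4 and GMNN have 2 listed starts each. CDC6, CDT1 and the second GMNN window hold an E2F consensus match, as does ORC3, and ORC1 and ORC6 hold only NF-Y boxes.

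The subunits of the origin recognition complex did not move together. ORC1 is the large ATPase subunit, which is degraded and made again in each cycle (ENSG00000085840; GENCODE 29 on GRCh38, chromosome 1, 52372829 to 52404459, minus strand). Counts in replicates 1 to 4, in this order here and below, were 26, 49, 27 and 40 with DMSO, against 16, 13, 12 and 28 with dTAGV1. In CPM these are 7.10, 11.8, 7.20 and 9.89 with DMSO and 4.54, 3.93, 3.54 and 6.62 with dTAGV1. The groups were apart by a narrow margin, between DMSO replicate 1 and dTAGV1 replicate 4. ORC1 fell by 0.93 on the log2 scale (SE 0.26; edgeR, Benjamini-Hochberg adjusted p = 0.00319), with a 95% interval from -1.46 to -0.40. It was the least counted of the 10 genes and had the widest interval, and leaving out single libraries moved it from -1.19 to -0.78.

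ORC6 is the smallest subunit, and it is bound less tightly than the others in human cells (ENSG00000091651; chromosome 16, 46689643 to 46698394, plus strand). Its CPM values were 46.5, 67.5, 54.2 and 47.0 with DMSO and 19.6, 13.3, 20.6 and 26.0 with dTAGV1. The lowest DMSO library was thus above the highest dTAGV1 library by a wide margin. ORC6 fell by 1.42 on the log2 scale (SE 0.16; edgeR, Benjamini-Hochberg adjusted p = 2.18e-07), the largest fall among the 10 genes. Only 4.38% of all tested genes had a lower fold change.

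ORC2, which joins ORC3 in the stable core of the complex (ENSG00000115942; chromosome 2, 200908973 to 200963680, minus strand), moved the other way. Its CPM values were 57.9, 51.1, 43.8 and 47.5 with DMSO and 60.4, 68.6, 61.9 and 71.0 with dTAGV1. All 4 dTAGV1 libraries lay above all DMSO libraries, though dTAGV1 replicate 1 was close to DMSO replicate 1. ORC2 rose by 0.39 on the log2 scale (SE 0.10; edgeR, Benjamini-Hochberg adjusted p = 0.00223), and it stayed past the threshold in all 16 alternatives, at 0.31 to 0.46.

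ORC3 (ENSG00000135336; chromosome 6, 87590067 to 87667453, plus strand) had CPM values of 22.4, 17.6, 21.3 and 21.8 with DMSO and 22.7, 21.7, 25.6 and 29.6 with dTAGV1, and the groups overlapped. Its log2 fold change was 0.27 with a 95% interval from -0.02 to 0.56 (edgeR, Benjamini-Hochberg adjusted p = 0.108). ORC4, an ATPase subunit (ENSG00000115947; chromosome 2, 147930397 to 148021604, minus strand), ranged from 31.7 to 35.1 CPM with DMSO and from 32.0 to 41.9 with dTAGV1. Its log2 fold change was 0.16 with an interval from -0.08 to 0.39 (edgeR, Benjamini-Hochberg adjusted p = 0.258). ORC5, the third ATPase subunit (ENSG00000164815; chromosome 7, 104126341 to 104208047, minus strand), ranged from 22.9 to 30.2 CPM with DMSO. With dTAGV1 it stood at 19.6 in replicate 1 and at 29.9 to 31.0 in the others. Its log2 fold change was 0.09 with an interval from -0.21 to 0.39 (edgeR, Benjamini-Hochberg adjusted p = 0.632). A p above the threshold does not show that these 3 genes were equal in both groups, but all 3 intervals lie above the falls of the other subunits.

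**Figure D2:**
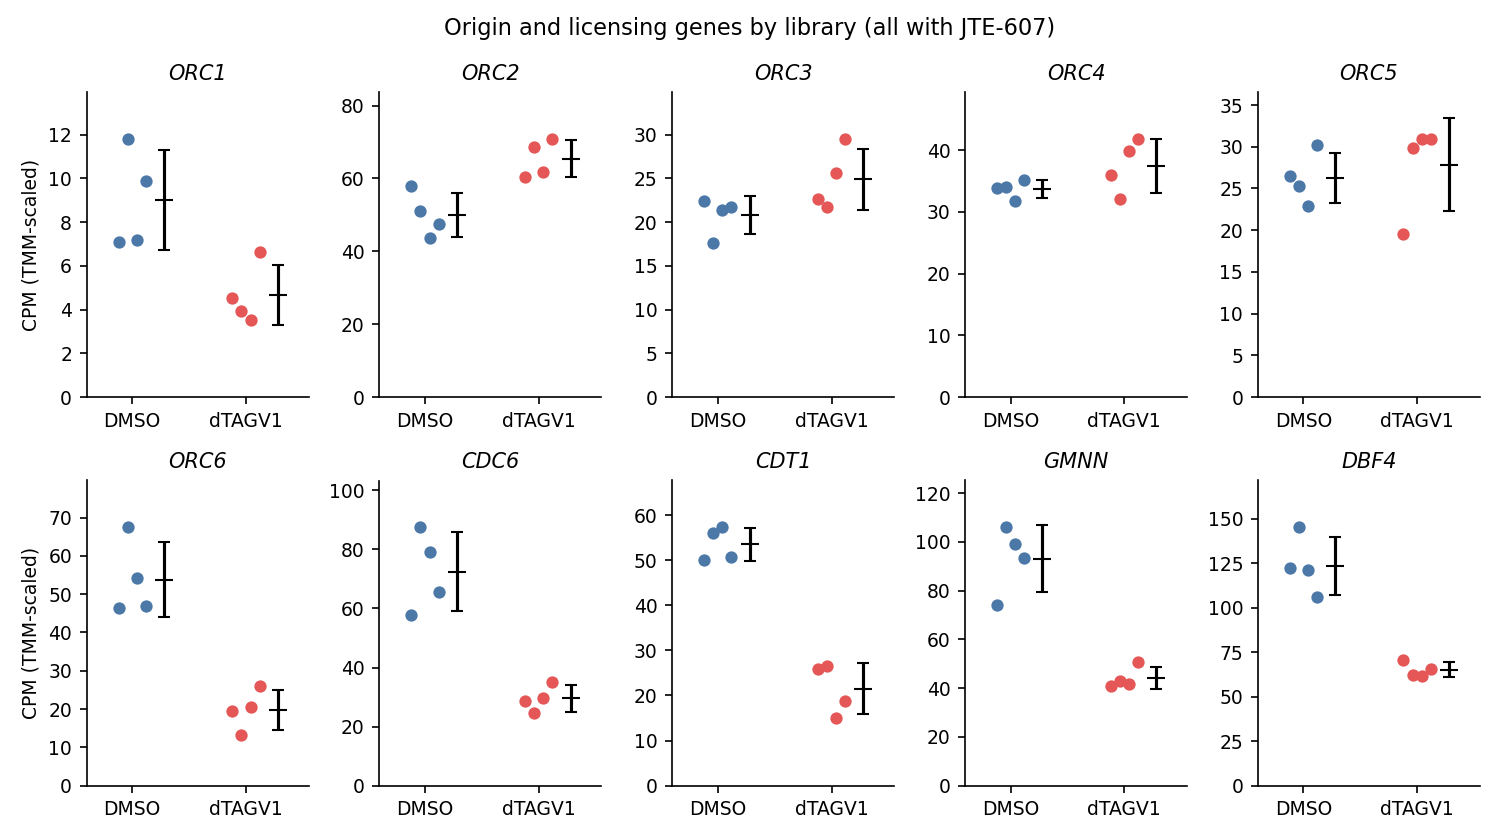
Level of each gene in CPM in the 8 libraries, with DMSO in blue and dTAGV1 in red; the bars give mean ± SD (n = 4 each) and each panel has its own axis from 0. ORC1, ORC6, CDC6, CDT1, GMNN and DBF4 are lower in all dTAGV1 libraries, ORC2 is higher in all of them, and ORC3, ORC4 and ORC5 overlap.

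The loading factors fell to a like extent. CDC6, an ATPase that binds the origin recognition complex and recruits CDT1 with MCM (ENSG00000094804; chromosome 17, 40287633 to 40304657, plus strand), had 57.7, 87.5, 79.0 and 65.5 CPM with DMSO and 28.6, 24.5, 29.8 and 35.2 with dTAGV1. The groups did not overlap, and the DMSO libraries were spread more widely. CDC6 fell by 1.29 on the log2 scale (SE 0.13; edgeR, Benjamini-Hochberg adjusted p = 2.09e-08).

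CDT1, which brings MCM to the origin (ENSG00000167513; chromosome 16, 88803213 to 88809258, plus strand), had 50.01, 56.0, 57.4 and 50.7 CPM with DMSO and 25.8, 26.6, 15.02 and 18.7 with dTAGV1. Among the dTAGV1 libraries, replicates 3 and 4 were lower than 1 and 2, which is not the order seen for CDC6 or ORC6. CDT1 fell by 1.32 on the log2 scale (SE 0.14; edgeR, Benjamini-Hochberg adjusted p = 1.53e-08).

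Geminin, the inhibitor of CDT1, fell as well. GMNN (ENSG00000112312; chromosome 6, 24774931 to 24786099, plus strand) had 74.3, 106, 99.0 and 93.2 CPM with DMSO and 41.1, 42.9, 41.8 and 50.6 with dTAGV1. Each dTAGV1 library was below the lowest DMSO library, replicate 1. GMNN fell by 1.07 on the log2 scale (SE 0.11; edgeR, Benjamini-Hochberg adjusted p = 7.34e-09).

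DBF4 (ENSG00000006634; chromosome 7, 87876216 to 87909541, plus strand) had 122, 145, 121 and 106 CPM with DMSO and 70.9, 62.2, 61.6 and 65.7 with dTAGV1. The dTAGV1 libraries lay close together, well below the lowest DMSO library, replicate 4. DBF4 fell by 0.93 on the log2 scale (SE 0.10; edgeR, Benjamini-Hochberg adjusted p = 9.24e-09). CDC7, the kinase it activates, had a log2 fold change of -1.32 (SE 0.31; edgeR, Benjamini-Hochberg adjusted p = 0.00109), and DBF4B, a relative of DBF4 that also binds CDC7, had -1.07 (SE 0.33; adjusted p = 0.00731). Both were chosen after their values were seen. CDC7 had only 9 to 53 counts, and its groups overlapped.

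**Figure D3:**
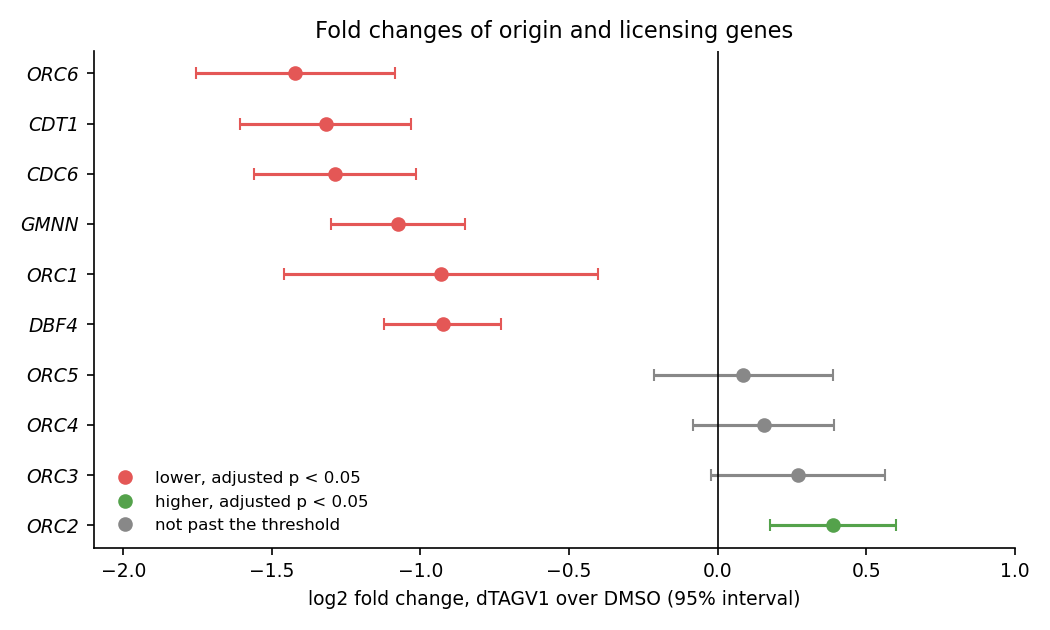
Log2 fold change of each gene (dTAGV1 over DMSO) with its 95% interval from the edgeR fit, coloured by whether the adjusted p was under 0.05. The 6 lower genes lie between -1.42 and -0.93, and ORC2, ORC3, ORC4 and ORC5 lie between 0.09 and 0.39.

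A ratio of 2 genes within a library does not depend on how libraries are scaled, so all 45 pairs were compared. The log2 ratio of ORC1 to ORC2 counts was -2.48 ± 0.40 with DMSO (SD, n = 4) and -3.81 ± 0.33 with dTAGV1 (SD, n = 4). It changed by -1.33 (exact permutation p = 0.0286, and 0.0559 after adjustment over the 45 pairs). Pairs were sorted by the calls on these same libraries, so a shift between genes called lower and the others restates those calls. Pairs of other tested genes were not compared. Of 24 pairs that join a lower gene to one of ORC2, ORC3, ORC4 and ORC5, the ratio did not overlap between the groups in 23. DBF4 to ORC5 was the exception, at 0.99 in size. In the 15 pairs of lower genes and in the 6 pairs among ORC2, ORC3, ORC4 and ORC5, the groups overlapped in every pair, and the changes were at most 0.53 and 0.32.

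With 4 libraries against 4, the smallest p that the exact permutation test can give is 0.0286, and 23 pairs reached it. Adjusted over the 45 pairs, that became 0.0559, so 0 pairs passed 0.05. CDT1 to GMNN, the activator against its inhibitor, had a log2 ratio of -0.79 ± 0.16 (SD, n = 4) with DMSO and -1.06 ± 0.45 (SD, n = 4) with dTAGV1. The change of -0.28 was smaller than the spread with dTAGV1 (exact permutation p = 0.343, and 0.386 after adjustment). It was -0.141 without dTAGV1 replicate 3 and -0.153 without dTAGV1 replicate 4. Without dTAGV1 replicate 1 it was -0.407, and without dTAGV1 replicate 2 it was -0.401.

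**Figure D4:**
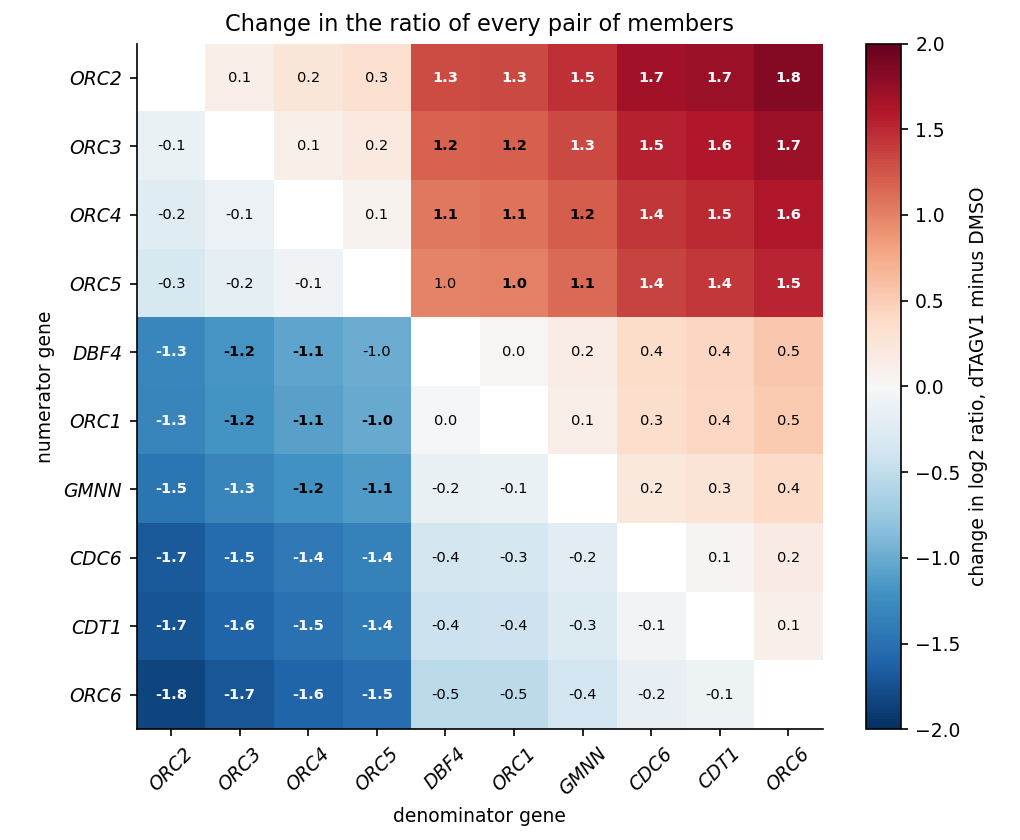
Change in the log2 ratio of each pair of genes (row over column, dTAGV1 minus DMSO); bold values mark pairs whose libraries did not overlap between the groups. The block that sets ORC2, ORC3, ORC4 and ORC5 against the other 6 genes holds changes of 0.99 to 1.84. Changes among the genes on either side are at most 0.53. The split follows the calls on the same libraries.

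Levels of the 6 lower genes also varied among the DMSO libraries. For 5 of the 6, DMSO replicate 1 was the lowest of its group, and for 5 of the 6, DMSO replicate 2 was the highest. Transcripts of other cell cycle genes moved with them. A list of 18 transcripts that peak in G2 and mitosis summed to 3194, 5690, 4955 and 3618 CPM with DMSO, and to 1549 to 2098 with dTAGV1. Their part in the falls of the 6 genes was not tested. The 17 tested transcripts that peak at G1/S, without the 10 genes, summed to 1362 to 1812 CPM with DMSO and 738 to 972 with dTAGV1. The 10 genes had 6 calls of lower and 1 of higher in each of the 8 fits that left out 1 library. In bulk RNA, fewer cells in a cycle phase and less RNA per cell cannot be told apart. Reads come from near transcript 3′ ends, so a change in the ends used could also alter counts, which was not tested.

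All 18 G2 and mitosis transcripts were called lower, where 28.5% of all tested genes were, with a median log2 fold change of -1.28, and CDC20 (-2.01) and AURKB (-1.86), a mitotic activator and a mitotic kinase, fell most. Of the G1/S transcripts, 15 of 17 were called lower and 1 higher, with a median of -1.24. Both lists were chosen with earlier results of these data known. The cyclin gene CCNE1 (-1.999) and the transcription factor gene E2F1 (-1.98) fell most. CHAF1B, a subunit of the histone chaperone that follows the replication fork, rose by 1.75 on the log2 scale, from 18.6 ± 0.97 to 62.6 ± 7.42 CPM (SD, n = 4 each).

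The counts of each of the 10 genes were then set against the summed counts of these lists in the same library, a comparison chosen after seeing the data. Relative to the G1/S sum, ORC6 changed by -0.49 and CDC6 by -0.32 on the log2 scale, each with groups that did not overlap (exact permutation p = 0.0286, and 0.0571 after adjustment over 20 comparisons). The change of ORC6 was -0.31 without dTAGV1 replicate 2. CDT1, GMNN, ORC1 and DBF4 had changes of -0.38, -0.11, 0.02 and 0.04, and their groups overlapped. That of CDT1 was -0.24 without dTAGV1 replicate 4. All of these changes depend on the make-up of the list. The G1/S sum includes PCNA, which was not called (mean of 160 CPM with DMSO and 166 with dTAGV1), and CHAF1B, which rose. Changes relative to a sum without PCNA and CHAF1B were not computed. ORC2, ORC3, ORC4 and ORC5 changed by 1.03 to 1.35 and did not overlap. The G1/S sum itself fell to 0.515 of its DMSO level in CPM, and the G2 and mitosis sum to 0.412. A gene that did not change thus rises relative to either sum, and ORC3, ORC4 and ORC5 were not called. The share of all tested genes without overlap in such ratios was not computed. The G2 and mitosis sum likewise depends on its list, in which the most counted genes weigh most. Relative to the G2 and mitosis sum, all 6 lower genes overlapped between the groups, with changes from -0.20 for ORC6 to 0.33 for DBF4. The value for ORC6 was -0.0951 without dTAGV1 replicate 2 and -0.131 without DMSO replicate 1. No comparison passed after adjustment over the 20, and 10 had an exact permutation p of 0.0286. These 10 include ORC2, ORC3, ORC4 and ORC5 against both sums.

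Genes that act beside the 10 were grouped by role and described by counts and medians. Of all tested genes, 28.5% were called lower and 29.4% higher. These lists too were chosen with earlier results of these data known, so their counts describe the lists and do not test them. Of 8 tested genes for helicase loading, which are the MCM subunits, their chaperone MCMBP and KAT7, 7 were called lower and 0 higher, with a median log2 fold change of -0.89. MCM3 (-1.30) and MCM2 (-1.27), subunits of the helicase that CDC6 and CDT1 load, fell most, and LRWD1, a partner of the origin recognition complex, had too few counts to test. Of 17 genes for origin firing, 15 were called lower and 0 higher, with a median of -1.07. GINS4 (-1.74), a subunit of the active helicase, and MCM10 (-1.58), which helps to activate it, fell most.

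RIF1 and the catalytic subunits of PP1 reverse the phosphorylation that DBF4 and CDC7 place on MCM. Here 3 of 4 were called lower, against 28.5% of all tested genes, with a median log2 fold change of -0.55, led by the PP1 subunit genes PPP1CB (-2.19) and PPP1CC (-0.79). Of 14 genes for turnover of licensing factors, 8 were called lower and 1 higher, with a median of -0.26. In either direction that is 9 of 14, near the 57.9% of all tested genes that were called. DTL (-1.46), which directs CDT1 to destruction on replicating DNA, and CCNF (-1.71), an F-box protein that acts on CDC6, fell most. DDB1 (0.20), the adaptor of the ligase that holds DTL, rose.

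**Figure D5:**
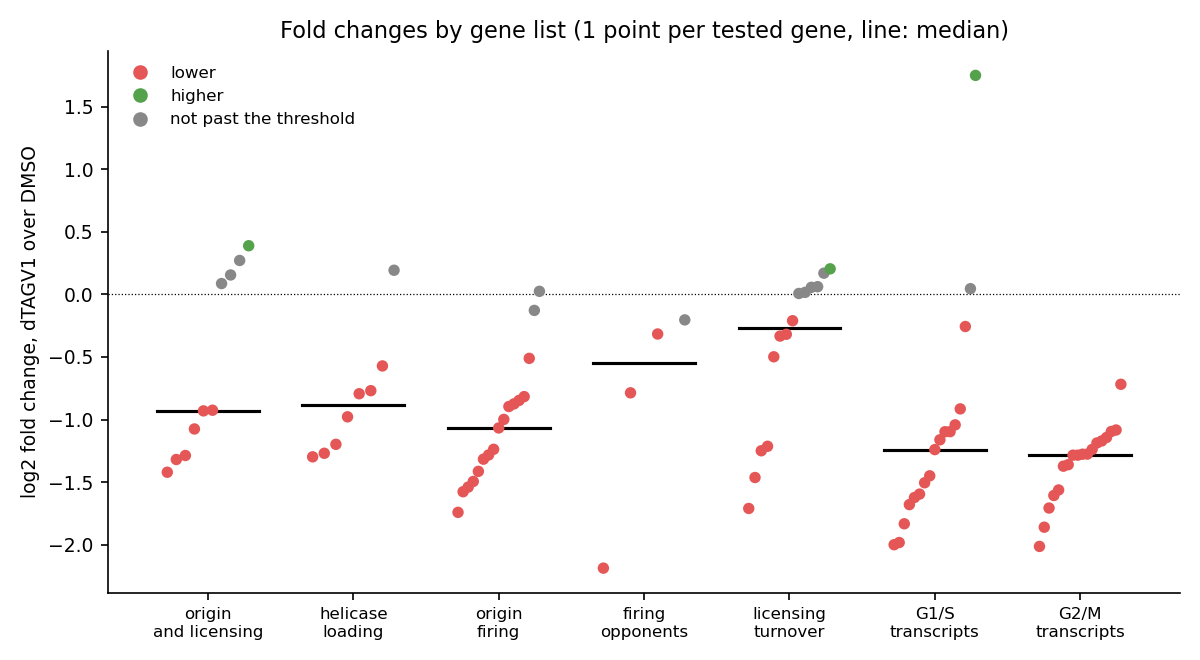
Log2 fold change (dTAGV1 over DMSO) of each tested gene in 7 lists, with the median of each list as a line. The 10 origin and licensing genes have values on both sides of 0, whereas the 18 G2/M transcripts lie between -2.01 and -0.72.

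Genes next to the 10 were checked because adjacent transcription can add reads. Of 11 tested genes that overlapped one of them or lay within 5 kb, 7 passed the test, a share near the 57.9% of all tested genes that did. Only TUT4, WIPF2 and RARA lie on the same strand as the gene they neighbour. The rest lie on the other strand, whose reads were counted apart. DBF4 overlaps SLC25A40, a mitochondrial carrier gene on the other strand, at their starts, and SLC25A40 had a log2 fold change of -1.22 (SE 0.21; edgeR, Benjamini-Hochberg adjusted p = 1.67e-05). APRT, which lies 81 bases beyond CDT1 on the other strand and salvages adenine, had -0.58, and VPS35, which lies 125 bases before ORC6 on the other strand and sorts endosomal cargo, had -0.33. ORC4 overlaps MBD5 (0.80) and ACVR2A (0.75), both on the other strand and both higher, although ORC4 itself was not called. RARS2 (0.21), beside ORC3, and WIPF2 (0.24), upstream of CDC6, were higher, and PRPF38A (-0.15) and TUT4 (0.07) beside ORC1, RARA (-0.11) beside CDC6 and GALNS (0.29) beside CDT1 did not pass.

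Reads on the opposite strand were few. They came to 0% of the sense counts for ORC5, GMNN and DBF4, to 0.0638% for CDC6 and 0.350% for CDT1, and at most to 7.22% for ORC6. Only ORC6 had enough to test, with 5 to 11 opposite-strand counts with DMSO and 10 to 15 with dTAGV1. Its opposite-strand log2 fold change was 0.54 (SE 0.37; edgeR, Benjamini-Hochberg adjusted p = 0.235), where 48.4% of 3324 genes tested on that strand were called.

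The tagged factor binds UGUA, so the last 100 bases of 1 annotated protein-coding transcript of each gene were searched for TGTA on the transcript strand. It was present in 4 of 10 genes, or 40.0%, and in 55.6% of 10639 tested protein-coding genes. Among those called lower the share was 55.9%, and among those called higher it was 58.1%. The 4 of the 10 genes that held it all did so more than once. That is 40% of the 10 genes, against 21.5% of all tested protein-coding genes, or 2286 of the 5910 that held it. ORC1, ORC6 and GMNN, which fell, and ORC3, which was not called, held it, and ORC2, ORC4, ORC5, CDC6, CDT1 and DBF4 did not. The site nearest the annotated end of each is shown from the GENCODE 29 transcripts, with TGTA in capitals, because these are the words the cleavage factor is known to bind. The capitalised word begins 42 bases from the annotated end in ORC1, 38 in ORC6, 9 in GMNN and 31 in ORC3. A further TGTA in the ORC3 stretch, which begins 37 bases from the annotated end, is left in lower case. Whether these annotated ends are the ones used in HCT116 was not analysed here.
ORC1: gaaatggctctcaTGTAttttggaattttc
ORC3: tagagtatgtaaaTGTAataaattccgtta
ORC6: taaatcaatatatTGTAcagcctaagttaa
GMNN: taatgaaatataaggagtatgTGTAgaaaa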

How the data were processed

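Transcript 3′ ends of poly(A) RNA were sequenced with the Lexogen QuantSeq forward kit from Trizol-extracted RNA, per the labels' protocols. The submitters' processing notes name FastQC, fastp, STAR, HTSeq, DESeq2 and the build GRCh38, with no role, order or version. The authors deposited whole-number read counts per gene and strand, in the layout of STAR, per the file layout. Whether PCR copies were removed is not given in the sources used here. No division by length was made and levels are not ranked between genes, because each transcript gives reads near its 3′ end. Counts on the strand of the gene were used, which exceeded the opposite strand 8.28 to 8.48 times. Totals of reads given to no gene stayed out. They were 58.0% to 59.2% of each library with DMSO and 56.7% to 62.8% with dTAGV1.

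Genes were tested with edgeR 4.0.16 in R 4.3.3 (filterByExpr defaults, TMM, robust quasi-likelihood fit) on all 12618 genes, with Benjamini-Hochberg adjustment and a threshold of 0.05. Ratios used a pseudocount of 0.5 and 2-sided exact permutation tests. Symbols were looked up by gene identifier, coordinates from GENCODE 29 and upstream sequences from RefSeq (GRCh38.p14). Protein sequences were not used here. The 10 genes and the lists were chosen with earlier results of these data known. Named genes beyond the 10 are NUDT21, the 2 largest called changes in each direction in each list, and tested genes that overlap one of the 10 or lie within 5 kb. Outside this rule stand CDC7 and DBF4B, the partner and the relative of DBF4, LRWD1 and PCNA, all chosen after their values were seen. The cell type markers also stand outside it.

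Same-numbered libraries deviated from their group means with correlations of 0.135, -0.0221, 0.0253 and 0.0362, and no label ties a number to a common culture or day, so numbers were not taken to pair libraries. Every within-group pair differed by more than sampling noise (chi-square over its degrees of freedom 1.89 to 5.62). Counts were simulated for this comparison with 200 of 12618 genes changed. In them edgeR recovered 62.7% of genes changed by 0.5, 92.3% by 1 and 100% by 2 on the log2 scale, with 12 false calls. In the data 57.9% of tested genes were called, far more than were changed in the simulation. The adjusted threshold depends on that share, so these rates need not hold for the data. Alternatives were DESeq2 1.42.0, limma-voom (limma 3.58.1), RLE and library-size scaling, other filters, counts irrespective of strand, a replicate term, a pseudocount of 5 and leaving out each library. Figures were drawn with matplotlib 3.10.9.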

Additional observations from a re-analysis of the deposited data

Results flagged for a closer look

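ORC5 in dTAGV1 replicate 1 stood at 19.6 CPM, apart from 29.9, 30.9 and 31.0 CPM in the other dTAGV1 libraries. The gap was 0.906 of the range of the group, above the critical value for 4 samples, which chance passes in about 1 group in 20. It was the only one of 20 groups (10 genes in 2 conditions) that did so. Without that library the log2 fold change of ORC5 was 0.21 in place of 0.09 (edgeR, Benjamini-Hochberg adjusted p = 0.175 in place of 0.632).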

How the results depend on the processing

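Counts of the 10 genes held in all 16 alternatives: 6 were called lower, or 5 of 8 tested where a mean of at least 100 counts was required (ORC1 and ORC3 were then not tested), and 1 was called higher. With that filter 6 of 7 tested origin firing genes were called lower in place of 15 of 17, since fewer were tested. With a replicate block the 10 genes again gave 6 lower and 1 higher, ORC1 to ORC2 kept a change of -1.33 (exact sign-flip test, Benjamini-Hochberg adjusted p = 0.176), and no call changed; 4 pairs cannot go below 0.125. For 4 changes relative to summed lists, none past the threshold, the sign changed. Relative to the G1/S sum, ORC1 was -0.0717 and DBF4 -0.0652 with counts irrespective of strand, and they ran from -0.0963 to 0.0992 and from -0.0446 to 0.123 when single libraries were left out. Relative to the G2 and mitosis sum, CDC6 was 0.00168 with a pseudocount of 5, and CDT1 ran from -0.279 to 0.0389 when single libraries were left out. Opposite-strand counts had no value with the filter at a mean of 100, which left none of the 10 genes. Causes were not tested. Low counts limit ORC1 most.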
